A study of Mus musculus with 30 samples.

Results

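H3K27ac was compared between mouse cells that had lost estradiol (E2) for 72 h and then had it back for 48 h, and cells that stayed without E2 for 120 h. Both cultures were taken at the same total time. The cells, labelled ER-Hoxa9-Lys-GFP, are of strain C57BL/6 and were grown in vitro in medium conditioned with stem cell factor. They carry ER-HOXA9, a fusion of HOXA9 with the part of the estrogen receptor that binds hormone, which needs E2 to be active. The members are the H3K27ac peaks of the 2 lists that no peak of the other list overlapped by 1 bp: 4488 of 24930 peaks of the 72 h list and 30524 of 48710 peaks of the 120 h list, 35012 of 73640 in all. "72 h" below always means 72 h of withdrawal followed by restored E2, and "120 h" means withdrawal without restoration. The other lists used came from the same cells kept in E2, or deprived for 24, 40 or 56 h and returned to E2 for 96, 80 or 64 h.

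HOXA9 is a homeodomain transcription factor of blood progenitors that, when kept active, holds myeloid cells in a proliferating, immature state. H3K27ac is placed on histone H3 by the acetyltransferases p300 and CBP, and it marks promoters and enhancers in use. Stretches of closely spaced acetylated elements are typical of genes that define a cell's identity. The same lysine can instead carry H3K27me3, the repressive mark of Polycomb repressive complex 2, and a single histone tail cannot hold both marks at that residue. The series title names irreversible commitment to myeloid differentiation, and the 72 h condition asks what of the chromatin state is present once E2 has been restored.

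Each condition had 1 library per mark, so the differences have no replicate check and come without p-values. Intervals are 95% Clopper-Pearson intervals for shares and Newcombe intervals for differences. They take in the error of counting peaks alone, although peaks close together are not independent. The depth of the libraries is not known here. The H3K27ac lists held 27876 peaks in E2, 36845 at 24 h, 28791 at 40 h and 6356 at 56 h, and the 56 h list stands apart by its length. The narrowest peak was 146 bp in all of them. Coordinates are on mm9, as inferred from their range. No annotation or sequence of that build was used, so regions are given by position, no gene is named, and the cells were not checked against marker genes with these lists.

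The 120 h list was the longer and the wider. It covered 21.5 Mb against 8.22 Mb at 72 h. Of the 120 h peaks 62.7% (62.2 to 63.1) had no peak in the 72 h list, and of the 72 h peaks 18.0% (17.5 to 18.5) had none in the 120 h list. These shares are the background against which the counts below are read. The 120 h-only peaks covered 10.7 Mb, 50.05% of their list's length, and the 72 h-only peaks 1.11 Mb, 13.5% of theirs. Both lists together spanned 23.3 Mb, and 6.35 Mb of it, 27.2%, lay under peaks of both. The contrast was smaller between lists of equal length. With the 120 h list reduced to its 24930 widest peaks, which also removes its narrow ones, 37.7% of the 72 h peaks had no partner and 48.2% of the 120 h peaks had none.

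Few peaks stood at the line between shared and unshared. In the 72 h list 51 shared peaks overlapped a 120 h peak by 20 bp or less, and 41 unshared peaks lay within 20 bp of one. In the 120 h list these counts were 47 and 43. Shared 72 h peaks mostly sat inside 120 h peaks: 12163 of 20442 (59.5%) were covered over their full width, whereas 2061 of 18186 shared 120 h peaks (11.3%) were.

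Peaks of a single list were narrower than shared ones in both lists. The median width of 72 h-only peaks was 207 bp (quartiles 166 and 285), and that of shared 72 h peaks was 287 bp (201 and 425). In the 120 h list the medians were 267 bp (191 and 414) for unshared and 454 bp (290 and 716) for shared peaks. The 120 h-only peaks were thus nearly as wide as the shared peaks of the 72 h list. At the narrowest width of 146 bp stood 319 of the 72 h-only peaks (7.11%) and 926 of the 120 h-only peaks (3.03%).

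The unshared share dropped with every step in width. Among 72 h peaks up to 200 bp, 29.3% (28.2 to 30.3) had no 120 h partner, and among those over 1000 bp it was 1.71% (0.630 to 3.68), or 6 of 351. Among 120 h peaks up to 200 bp, 83.7% (83.0 to 84.4) had no 72 h partner. Over 1000 bp it was still 28.1% (26.6 to 29.7), or 890 of 3163. Wide H3K27ac peaks of the restored cells were therefore nearly always overlapped by a 120 h peak. Wide peaks of the 120 h cells had no 72 h peak in 890 places. A wide peak meets the rule of 1 bp more easily than a narrow one. The part of this in the drop with width was not tested.

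**Figure D1:**
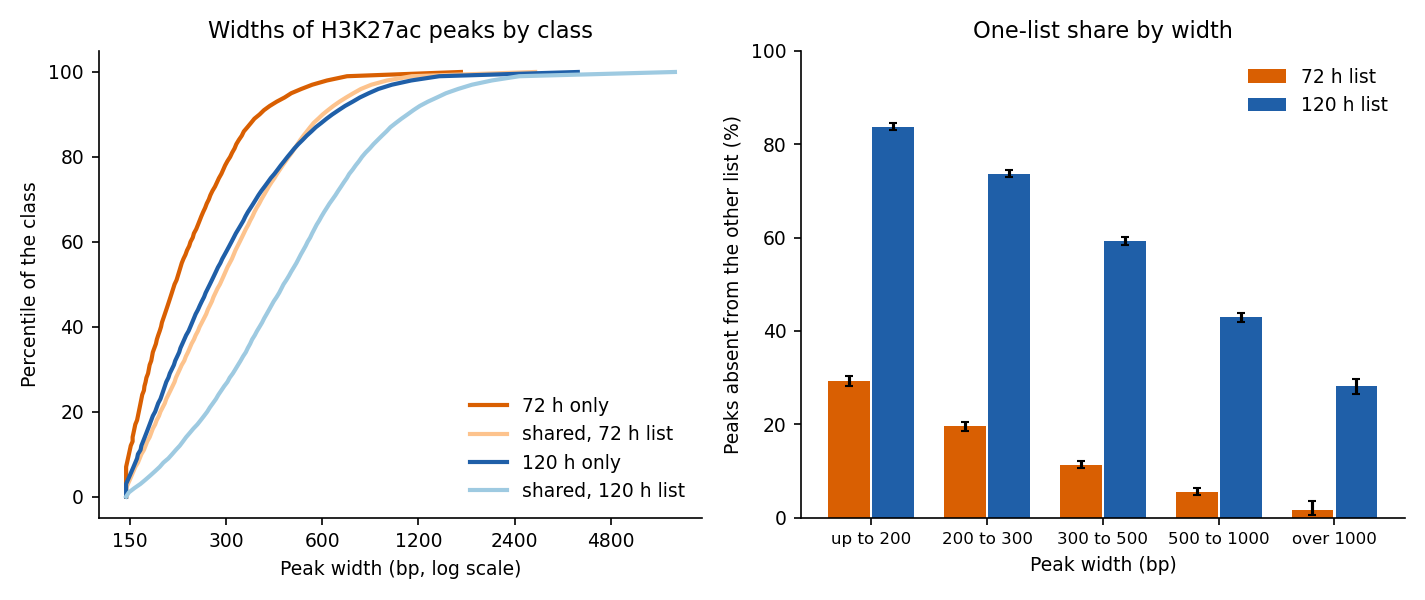
Left, the percentile of each class (y axis) at each peak width in bp on a log scale (x axis) for 72 h-only, 120 h-only and shared peaks; right, the percent of peaks absent from the other list by width, with 95% Clopper-Pearson intervals. The 72 h-only curve lies furthest left (median 207 bp), and the bars drop from 29.3% to 1.71% for the 72 h list and from 83.7% to 28.1% for the 120 h list.

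Many 72 h-only peaks lay beside 120 h acetylation, not away from it. Of the 4488 peaks, 1670 (37.2%) were within 500 bp and 2130 (47.5%) within 1 kb of a 120 h peak. Further out, 1518 (33.8%) were more than 10 kb and 651 (14.5%) more than 50 kb from one. Of the 120 h-only peaks, 5695 (18.7%) were within 500 bp of a 72 h peak, 8565 (28.1%) within 1 kb, 11803 (38.7%) beyond 10 kb and 4003 (13.1%) beyond 50 kb. The median gap was 1274.5 bp from 72 h-only peaks to the 120 h list and 4903.5 bp from 120 h-only peaks to the shorter 72 h list.

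The lists not used to form the classes separated them further. In the E2 list 1711 of the 4488 72 h-only peaks were found (38.1%, 36.7 to 39.6), against 59.2% of all 72 h peaks and 63.8% (63.2 to 64.5) of the shared ones. In the restored lists the distance to shared peaks was smaller. At 24 h 69.0% (67.6 to 70.4) of 72 h-only peaks were found, against 80.3% of shared and 78.2% of all 72 h peaks. At 40 h it was 62.5% (61.1 to 63.9) against 72.9% and 71.1%, and in the short 56 h list 15.7% (14.7 to 16.8) against 16.3% and 16.2%. The difference, 72 h-only minus shared, was -25.7 points (-27.2 to -24.1) in E2, -11.2 (-12.7 to -9.80) at 24 h, -10.4 (-11.95 to -8.87) at 40 h and -0.57 (-1.72 to 0.63) at 56 h.

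Acetylation listed at 72 h and missing at 120 h was hence found more often in the 24 h and 40 h lists, from cells that lost E2 and regained it, than in the list of cells kept in E2. In the short 56 h list the share was lower than in E2 for all classes of peaks. The E2 and 40 h lists were of like length, with 27876 and 28791 peaks over 10.7 and 10.6 Mb. Among peaks over 200 and up to 300 bp wide, called 200 to 300 bp below, the difference was -21.6 points (-24.4 to -18.8) in E2, -5.89 at 24 h and -3.24 at 40 h. It was 3.11 points (1.15 to 5.22) at 56 h. The share of the 72 h-only peaks in E2 was 42.7% for those over 10 kb from any 120 h peak. The part that differences between the single libraries have in this was not tested.

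By combination, 1471 of the 72 h-only peaks (32.8%) were in the E2, 24 h and 40 h lists alike. These are sites listed in E2 and in the 24, 40 and 72 h restored cells, and lacking in the 120 h list. No list was made at the end of the shorter withdrawals. Sites held throughout therefore cannot be told apart from sites lost and then regained. A further 1123 (25.02%) were in the 24 h and 40 h lists and absent in E2. Another 1123 (25.02%) were in none of these 3 lists, and they were narrow, with a median of 184 bp against 233 bp for those in all 3. Sites in E2 but missing at both 24 and 40 h numbered 56 (1.25%), near the 1.60% among shared 72 h peaks. Among shared 72 h peaks 56.8% were in all 3 lists, 13.7% in 24 h and 40 h without E2, and 15.7% in none.

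The 120 h-only peaks were mostly absent from every other list. Of 30524, 22529 (73.8%, 73.3 to 74.3) were in none of the E2, 24 h and 40 h lists, against 15.04% of shared 120 h peaks, and 22468 were absent at 56 h as well. The E2 list held 16.4% (15.98 to 16.8) of them, against 34.4% of all 120 h peaks and 64.6% of shared ones. At 24 h 19.7% were found, against 42.7% of all and 81.2% of shared 120 h peaks. For 40 h the shares were 12.4%, 35.8% and 74.98%, and for 56 h 2.12%, 7.89% and 17.6%. Peaks of E2 and 120 h that were missing at 24, 40 and 72 h numbered 1403 (4.60%), and 2143 (7.02%) were in E2, 24 h, 40 h and 120 h but missing at 72 h. Among shared 120 h peaks, 1.35% were in E2 and in neither the 24 h nor the 40 h list, and 58.7% were in all 3.

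**Figure D2:**
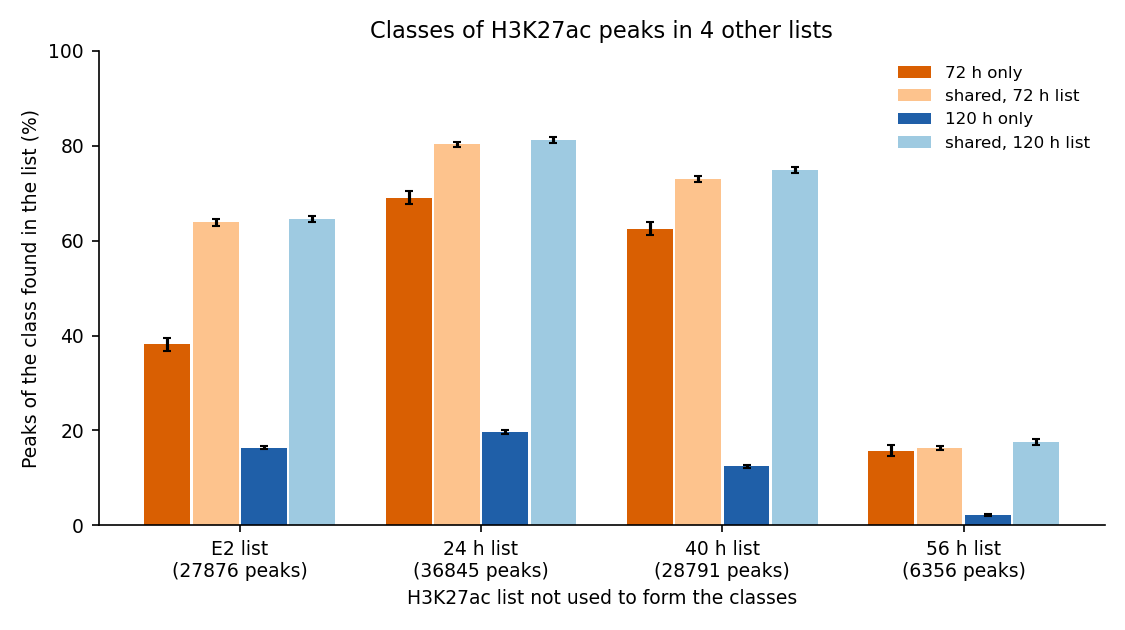
Percent of each class of H3K27ac peaks (y axis) overlapped by 1 bp or more in the E2, 24 h, 40 h and 56 h lists (x axis), with 95% Clopper-Pearson intervals. The 72 h-only bars stand at 38.1% in E2 and at 69.0% and 62.5% at 24 and 40 h, and the 120 h-only bars are the lowest in each list.

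The widest 72 h-only peaks are given here by covered length, whereas the shares above count any overlap. By any overlap, 7 of the 8 widest were in E2, against 38.1% of the class. Of 345 shared 72 h peaks over 1000 bp, 280 were in E2 and 332 at 24 h. On chromosome 6, the peak from 99285670 to 99287299 was 1630 bp wide. It was covered over 217 bp in E2, by 1517, 1630 and 1290 bp at 24, 40 and 56 h, and by 0 bp at 120 h. So most of its width was acetylated in each restored list, with a small part of it in E2 and none at 120 h. On chromosome 16, the peak from 33794157 to 33795514 (1358 bp) had 0 bp in E2 and its full 1358 bp at 24, 40, 56 and 72 h. The nearest 120 h peak was 468 bp away. On chromosome 14, from 56718739 to 56719997 (1259 bp), the covered length was 720 bp in E2 and 1250, 1217 and 881 bp at 24, 40 and 56 h.

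One of these sites belonged fully to the E2 state. The chromosome 12 peak from 8778608 to 8780198 (1591 bp) was covered over all 1591 bp in E2 and at 24 h, over 1472 bp at 40 h, and not at all at 56 and 120 h (0 bp). At 120 h an H3K27me3 domain covered the whole 1591 bp, where the H3K27me3 lists of E2, 24, 40 and 72 h had 0 bp. A 120 h H3K27ac peak lay only 102 bp away. A second peak on this chromosome, from 8851898 to 8852975 (1078 bp), had 387, 1041, 959 and 585 bp in E2 and at 24, 40 and 56 h. No H3K27me3 list covered it.

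The rest of the 8 widest lay on chromosome 19 (32658184 to 32659446, 1263 bp), chromosome 15 (63480254 to 63481248, 995 bp) and chromosome 7 (30792455 to 30793437, 983 bp). The first of them was covered over 234 bp in E2 and 691, 593 and 488 bp at 24, 40 and 56 h. The chromosome 15 peak had 546 bp in E2 and 994, 983 and 920 bp at these times. At chromosome 7 it was 208 bp in E2 and 768, 599 and 203 bp. Over all 8, the median covered length was 310.5 bp in E2 and 1145.5, 1100, 733 and 1261 bp at 24, 40, 56 and 72 h. All 8 had a peak at 24 and at 40 h and 7 had one in E2 and at 56 h. The median width was far smaller. The peak chosen by rule at that width of 207 bp, on chromosome 2 from 28956262 to 28956468, was covered fully at 24, 40 and 56 h and over 76 bp in E2. It stands for the class in width only, since 15.7% of 72 h-only peaks were found at 56 h.

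Among the widest 120 h-only peaks the other lists were mostly empty. The peaks on chromosome 8 from 3665516 to 3669244 (3729 bp) and from 74871563 to 74874863 (3301 bp), on chromosome 10 from 59723582 to 59726776 (3195 bp) and on chromosome 11 from 74386477 to 74389424 (2948 bp) had 0 bp in E2 and at 24, 40, 56 and 72 h. Each was thus acetylated over its full width at 120 h with nothing listed in the other 5 lists. Their nearest 72 h peaks lay 274, 28251, 8368 and 268 bp away.

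In a pair of the 8, part of the stretch was also acetylated in E2. The widest, on chromosome 2 from 30545011 to 30548794 (3784 bp), had 1199 bp in E2, 1046 bp at 24 h, but 0 bp at 40, 56 and 72 h. An H3K27me3 domain of the 120 h list covered 684 bp of it. On chromosome 3, from 89189193 to 89192844 (3652 bp), E2 had 1373 bp in 4 peaks and 24, 40, 56 and 72 h had 0 bp. The remaining peaks, on chromosome 12 from 26072599 to 26075671 (3073 bp) and chromosome 9 from 59136123 to 59139140 (3018 bp), had 248 and 243 bp at 40 h, and the latter 358 bp at 24 h. The median-width example, on chromosome 1 from 108127789 to 108128055 (267 bp), had 0 bp in all 5 other lists.

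**Figure D3:**
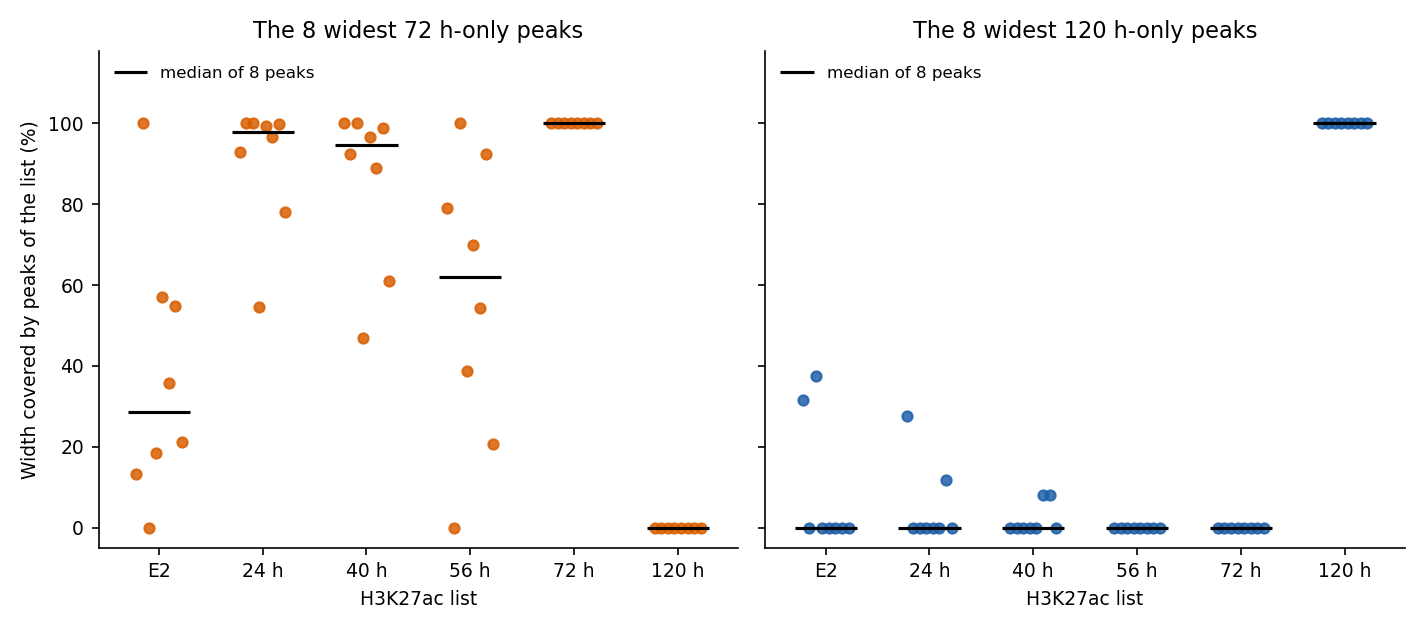
Percent of the width covered by peaks of each H3K27ac list (y axis, lists on the x axis) for the 8 widest 72 h-only peaks (left) and the 8 widest 120 h-only peaks (right); dots are peaks, bars are medians. The 72 h-only sites are covered at 24 and 40 h in all 8 cases. No single other list covers more than 2 of the 120 h-only sites, and these are not the same sites in each list. The 72 h and 120 h columns are set by the choice of peaks.

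The members also lay in clusters. Peaks of a class were joined where they lay within 10 kb, and 5 or more joined peaks made a cluster. By this rule 120 h-only peaks formed 1787 clusters with 15914 peaks, 52.1% of the class, and 72 h-only peaks formed 65 clusters with 408 peaks, 9.09%. Peaks with no other member within 10 kb made up 14.9% of the 120 h-only class and 53.8% of the 72 h-only class. A class with more members forms more clusters, so these counts are not a comparison of like with like. With equal list lengths the numbers were 509 and 150.

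The largest 72 h-only cluster lay on chromosome 16 from 33769070 to 33796936, 27867 bp with 15 such peaks. In that stretch peaks covered 1603 bp in E2, then 11551, 10418, 8288 and 8088 bp at 24, 40, 56 and 72 h, and 510 bp at 120 h. The 56 h list also exceeded E2 here, although it held the fewest peaks in all, with 15 peaks here against 7 in E2. On chromosome 1, from 64563327 to 64580868 (12 such peaks), the lengths were 2469, 6199, 5990, 1045, 5376 and 1899 bp in the same order of lists. The chromosome 6 cluster from 99283921 to 99294500 (11 peaks), which holds the widest 72 h-only peak, had 890, 4872, 5289, 3507, 5209 and 219 bp.

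Clusters on chromosome 7 (73355188 to 73363076) and chromosome 15 (63433502 to 63447139) had 9 peaks each. The former was covered over 3078 bp in E2, then 6299, 6320, 5506 and 3590 bp at 24, 40, 56 and 72 h, and 220 bp at 120 h. In this cluster the covered length at 72 h was nearer to that in E2 than to those at 24, 40 and 56 h. The latter had 170, 2377, 3002, 925, 4258 and 1077 bp. Of all bins of 100 kb, the fullest in 72 h-only peaks were those from 33700001 to 33800000 of chromosome 16 (23 peaks), 63400001 to 63500000 of chromosome 15 (17), 24500001 to 24600000 of chromosome 19 (16), 99200001 to 99300000 of chromosome 6 (15) and 8800001 to 8900000 of chromosome 12 (14). The chromosome 12 bin was covered over 7231 bp in E2 and 7190 bp at 120 h, against 11079 bp at 72 h.

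Over all 65 clusters of 72 h-only peaks, 61 had a peak at 24 h, 61 at 40 h, 58 at 56 h, 50 in E2 and 37 at 120 h. Their summed covered length was 219.6, 198.9, 97.2 and 190.6 kb at 24, 40, 56 and 72 h, 55.3 kb in E2 and 53.7 kb at 120 h. As a share of each list's length this was 1.496%, 1.87%, 4.86%, 2.32%, 0.517% and 0.250%. Relative to E2, the 24 h and 40 h lists placed 2.89 and 3.63 times as large a share of their length there. These lists did not define the clusters. In the short 56 h list, 1.999 Mb in all, it was 9.41 times, above the 4.49 of the 72 h list that defined them. The part that the length of the 56 h list has in this was not tested. Of the 28 clusters with no 120 h peak at all, 25 had a peak at 24 or 40 h, 22 at 56 h and 19 in E2. The first of these counts joins 2 lists, and the others are from 1 list each. All 72 h peaks were also found more often at 24 h (78.2%) and 40 h (71.1%) than in E2 (59.2%). Clusters of shared peaks were not measured.

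**Figure D4:**
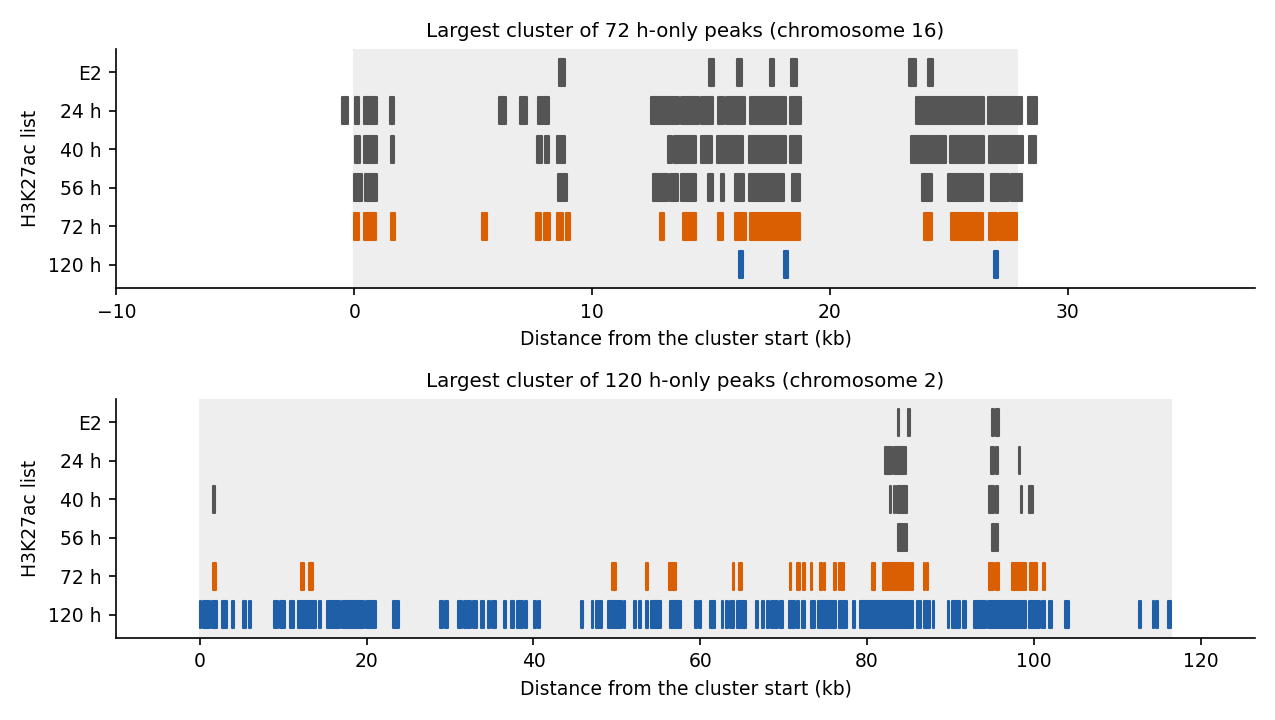
Peaks of the 6 H3K27ac lists (rows) by distance from the cluster start in kb (x axis) in the largest cluster of 72 h-only peaks, on chromosome 16, and of 120 h-only peaks, on chromosome 2; grey marks the cluster. In the upper map the 24, 40, 56 and 72 h rows are filled with 8088 to 11551 bp of peaks and the 120 h row has 510 bp; in the lower map the 120 h row has 50461 bp and the 72 h row 12514 bp.

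The largest 120 h-only cluster spanned 116488 bp on chromosome 2, from 117738559 to 117855046, with 75 such peaks. Peaks covered 887 bp of it in E2, then 2941, 3155, 1451 and 12514 bp at 24, 40, 56 and 72 h, and 50461 bp at 120 h. The 72 h list held 32 peaks in it, so the stretch was partly acetylated in restored cells. The next, on chromosome 12 from 25924100 to 26024552 (69 peaks), had 319, 232, 0, 0, 173 and 37011 bp. Of these 100453 bp, the 72 h list had acetylation in 1 peak of 173 bp and the 24 h list in 1 peak of 232 bp.

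On chromosome 8, from 129378331 to 129454216 (53 peaks), the covered lengths were 618, 1555, 194, 0, 1491 and 30764 bp. The chromosome 3 cluster from 90460083 to 90513987 held 48 peaks with 26658 bp at 120 h, and every one of the 5 other lists had 0 bp. Its nearest 72 h peak was 65809 bp away, and an H3K27me3 domain of the 120 h list covered 1106 bp of it. On chromosome 7, from 148128763 to 148211342 (47 peaks), the order was 4022, 5379, 3585, 1548, 3491 and 28930 bp. Here all lists had some acetylation and 120 h had the most. The bins of 100 kb fullest in 120 h-only peaks held 51 on chromosome 3 (90400001 to 90500000), 51 and 47 on chromosome 12 (25900001 to 26000000 and 26000001 to 26100000), 47 on chromosome 2 (117700001 to 117800000) and 42 on chromosome 10 (116700001 to 116800000).

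Of the 1787 clusters of 120 h-only peaks, 1152 (64.5%) also held a 72 h peak, 1203 a 24 h peak, 1039 a 40 h peak and 1026 an E2 peak. No 72 h peak fell in 635 (35.5%), 90 of them with 10 or more members, and 330 (18.5%) had no peak in any of the other 5 lists. The median covered length per cluster was 306 bp at 72 h against 3677 bp at 120 h; E2, 24 h and 40 h had 230, 459 and 221 bp. The clusters took up 41.6% of the 120 h list's length by their choice and 17.2% of the 72 h list's. The share was 12.2% in E2, 12.9% at 24 h, 12.6% at 40 h and 18.9% at 56 h.

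Regions present in both lists differed in extent. There were 17694 of them, with 7.11 Mb of 72 h peaks and 10.7 Mb of 120 h peaks, 1.51 times as much. The 120 h list covered more in 13459 (76.1%) and the 72 h list in 4182 (23.6%). The median ratio of covered length, 120 h over 72 h, was 1.33 (quartiles 1.01 and 1.98). It was 2 or more in 4371 regions (24.7%) and in the opposite direction in 463 (2.62%). In addition, 2248 of 18186 shared 120 h peaks (12.4%) spanned 2 to 7 separate 72 h peaks, against 468 of 20442 (2.29%) in the other direction.

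The largest excess at 120 h lay on chromosome 11 from 103032359 to 103039658, with 7300 bp at 120 h in 1 peak and 2063 bp at 72 h in 6 peaks. E2 had 2142 bp there. Others lay on chromosome 5 from 34873284 to 34879780 (6497, 1609 and 380 bp at 120 h, at 72 h and in E2), chromosome 2 from 167481657 to 167487000 (5344, 1046 and 1125 bp) and chromosome 13 from 49288779 to 49293804 (5026, 799 and 2273 bp). The region on chromosome 7 from 149576420 to 149584039 had 7620, 2457 and 0 bp. E2 had more than 72 h on chromosomes 11, 2 and 13 and less on chromosomes 5 and 7. The largest excess at 72 h was inside the chromosome 16 cluster, from 33785717 to 33787815, with 2046 bp at 72 h against 171 bp at 120 h. There 24, 40 and 56 h had 1903, 1947 and 1767 bp and E2 had 441 bp. On chromosome 9, from 114684793 to 114687215, the lengths at 72 h, 120 h and in E2 were 2399, 852 and 1531 bp, and on chromosome 10, from 20803751 to 20805781, they were 2028, 644 and 698 bp.

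The differences were spread over the genome. Bins of 100 kb were counted if a peak of either list began in them, 8512 in all. Of these, 120 h had more peaks in 5549 (65.2%), 72 h in 1474 (17.3%), and the numbers were equal in the rest. In 65 bins 72 h had at least 5 peaks more. Bins with 10 or more 120 h peaks and no 72 h peak numbered 60. Of the 2706 bins with a 72 h-only peak, 1742 (64.4%) also held a 120 h-only peak, which is 27.2% of the 6396 bins with a 120 h-only peak. Over all 8512 bins, 75.1% held a 120 h-only and 31.8% a 72 h-only peak. Bins without a peak of either list were left out, which raises these shares over all bins. The comparison therefore cannot show whether the classes keep apart or lie together. By chromosome, the unshared share of 120 h peaks ran from 59.2% on chromosome 5 to 67.3% on chromosome 12 (median 62.9%). That of 72 h peaks ran from 12.6% (11.1 to 14.2) on chromosome 11 to 27.7% (23.1 to 32.8) on chromosome X (median 18.6%). Chromosome X had the fewest peaks, 346 at 72 h.

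**Figure D5:**
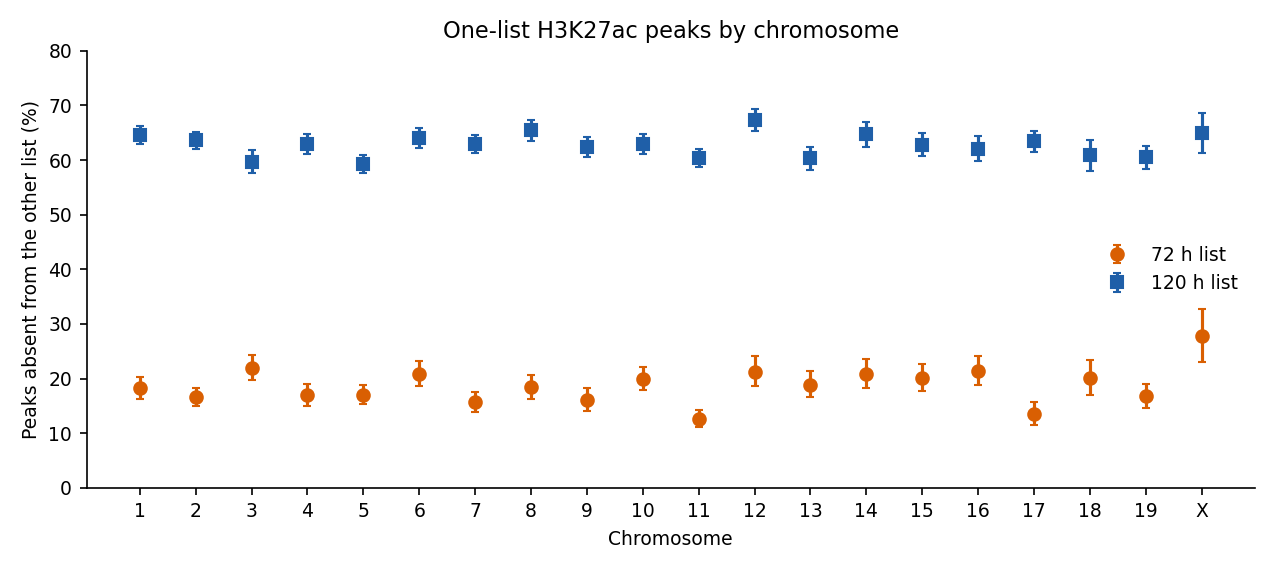
Percent of H3K27ac peaks absent from the other list (y axis) for each chromosome (x axis), with 95% Clopper-Pearson intervals. All 20 chromosomes have a higher share in the 120 h list (59.2% to 67.3%) than in the 72 h list (12.6% to 27.7%), and the 72 h share is highest on chromosome X.

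H3K27me3 lists, called separately and on the same build, met few of these peaks. The 120 h H3K27me3 list overlapped 24 of the 4488 72 h-only peaks (0.535%, 0.343 to 0.795), against 0.237% of all 72 h peaks and 35 of 20442 shared ones (0.171%, 0.119 to 0.238). The difference was 0.364 points (0.176 to 0.628). The 72 h H3K27me3 list overlapped 3 of the 4488 (0.067%), against 0.044% of all 72 h peaks. Those of E2, 24 h and 40 h overlapped 3, 4 and 1 (0.067%, 0.089% and 0.022%), against 0.076%, 0.064% and 0.028% of all. Shared sites all carried H3K27ac at 120 h by definition, so this comparison is not independent of how the classes were formed. Sites acetylated at 72 h and not at 120 h lay under H3K27me3 at 120 h more often than shared sites did, in 24 cases. Against the 0.734% of 120 h-only peaks their share was no higher, with a difference of -0.199 points (-0.402 to 0.0757). Of the 24 cases, 18 were among the 1518 peaks over 10 kb from a 120 h H3K27ac peak (1.19%, 0.704 to 1.87). The share was similar for 120 h-only peaks over 10 kb from a 72 h peak, 126 of 11803 (1.07%, 0.890 to 1.27). Among 72 h-only and shared 72 h peaks of 200 to 300 bp the shares were 0.423% and 0.172%. The interval of this difference reached from -0.019 to 0.754 points.

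The 120 h-only H3K27ac peaks were also met more often than the shared ones. The 120 h H3K27me3 list overlapped 224 of 30524 (0.734%, 0.641 to 0.836), against 0.542% of all 120 h peaks and 0.220% (0.157 to 0.299) of shared ones. In the 72 h H3K27me3 list it was 91 (0.298%), against 0.207% of all 120 h peaks. The E2 list also overlapped 91, against 0.226% of all. The 120 h H3K27me3 list was longer, with 6927 domains over 12.9 Mb against 5166 over 8.06 Mb at 72 h, and the part of its length in these counts was not tested.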

How the data were processed

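The authors deposited 1 peak list per sample with chromosome, start and end only, so the unit of these values is other: coordinates, with no score, height or p-value. MACS2 2.0, Bowtie2 2.0 and BWA are named in the submitters' processing notes, as are mm10 and mm9. The role of each, the calling threshold, the use of inputs and the read depth are not given in the sources used here. H3K27ac and H3K27me3 lists were taken as mm9: they reach 197003115 on chromosome 1, where the last gene of GRCm38.p6 ends at 195291439.

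Groups came from the sample titles. Overlap meant 1 bp or more on chromosomes 1 to 19 and X, and no peak lay elsewhere. Counts were made with Python 3.11.15, pandas 2.3.3 and SciPy 1.17.1, tested on simulated lists and checked with bedtools 2.31.1, which gave the same 4488 and 30524 peaks. As the lists hold no score, width replaced it for ranking and in the stricter alternatives. Regions were named by rule: the 8 widest peaks and the median-width peak of each class, 5 clusters, 5 bins and 5 shared regions each way. Not all of them are printed. The members, classes and rules were chosen with earlier results of these data known. H3K4me3, V5 and AM lists were not used here, as they were taken as mm10.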

Additional observations from a re-analysis of the deposited data

How the results depend on the processing

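Every alternative that gives these shares kept the order of the main shares: more 120 h peaks than 72 h peaks were unshared, and 72 h-only peaks were found in E2 more often than 120 h-only peaks. The values moved. In the order unshared 72 h, unshared 120 h, 72 h-only in E2, 120 h-only in E2, and median widths of 72 h-only and 120 h-only peaks, they were 21.9%, 72.7%, 36.5%, 15.4%, 224 bp and 298 bp when a peak had to be covered over 50%. With peaks within 1 kb merged they were 14.4%, 47.9%, 45.2%, 21.5%, 222 bp and 390.5 bp. With the widest 24930 peaks of each list, E2 included, they were 37.7%, 48.2%, 45.8%, 19.01%, 218 bp and 470 bp, and with peaks above each list's median width 25.6%, 64.8%, 41.5%, 17.5%, 344 bp and 493 bp. When a peak within 500 bp counted as shared, the 4 shares were 11.3%, 51.0%, 45.0% and 18.9%. Leaving out chromosome X moved no value beyond its interval. In 2 alternatives chosen after seeing the data, 14.8% of 120 h-only peaks of 200 to 300 bp were in E2, and peaks over 10 kb from the other list gave 42.7% and 14.4% in E2 with medians of 211 and 264 bp. Clusters of 10 or more peaks numbered 3 for 72 h-only and 510 for 120 h-only, and equal list lengths gave 150 and 509. The cause of these shifts was not tested, apart from the fewer peaks that some alternatives keep. No paired analysis was possible because each condition had 1 library. Without read depth or peak heights, a peak missing from a list cannot be told apart from one just under its threshold.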
